A study of Mus musculus with 15 samples.

Results

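Cathepsins are proteases of lysosomes and endosomes. Most are made as inactive proenzymes that are carried to the lysosome by sorting receptors and become active by proteolytic cleavage in the acid compartment, where they degrade proteins taken up by the cell. They are grouped by the residue that cuts the peptide bond into serine, aspartic and cysteine proteases, and in the lung they are known from macrophages and from alveolar epithelium.

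The 10 cathepsin genes Ctsa, Ctsb, Ctsc, Ctsd, Ctse, Ctsh, Ctsk, Ctsl, Ctss and Ctsz were taken by symbol from the 33340 genes of the count table, and all 10 passed the filter on low counts. Polyadenylated RNA was sequenced from the whole lungs of male adult C57BL/6 mice, a common inbred strain. Lungs of day 0 (n = 4), labelled as without treatment, were compared with lungs collected on days 7 (n = 4), 14 (n = 4) and 21 (n = 3) after 5 U/kg bleomycin, a DNA-damaging drug that injures and scars the lung, was given once into the trachea. Day 0 replicate 4 carried a control title and a bleomycin treatment label, and was kept in day 0 by its title. Nothing in the labels ties a library to a cage or day of work, and p-values measure the spread between these libraries. The lungs were bulk tissue, so that more cells of a type and more RNA per cell cannot be told apart.

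Libraries held 15652008 to 18020661 counts, and the 10 cathepsin genes took 0.23% to 0.253% of them at day 0. Mitochondrial genes took 2.03% to 4.22% of the counts, with low shares in all day 7 libraries and in day 0 replicates 1 and 2 and day 14 replicate 1. Values within libraries of like share are given where they change a call. Such values could be fitted only for days 7 and 14 against day 0. The other comparisons had too few libraries of like share. Levels are given as CPM, counts scaled to one library total with edgeR's TMM factors, and SD is the spread between libraries. A gene is called higher or lower at an edgeR quasi-likelihood p below 0.05, adjusted by Benjamini-Hochberg over 17457 genes, together with a fold change over 1.5. The 3 comparisons with day 0 share the same 4 control libraries.

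RefSeq start regions were available for 7 of the 10 genes, on the GRCm38.p6 build. The 250 bases before the start are shown for Ctsd and Ctsa, which hold the palindrome TCACGTGA, the core of the lysosomal gene motif that TFEB and its relatives are known to bind, and for Ctss and Ctsk, which had the largest changes after bleomycin and do not hold it. Capitals mark TCACGTGA, and all sequences read 5′ to 3′ on the strand of the gene.
Ctsd, chr7:142387828-142388077, minus strand: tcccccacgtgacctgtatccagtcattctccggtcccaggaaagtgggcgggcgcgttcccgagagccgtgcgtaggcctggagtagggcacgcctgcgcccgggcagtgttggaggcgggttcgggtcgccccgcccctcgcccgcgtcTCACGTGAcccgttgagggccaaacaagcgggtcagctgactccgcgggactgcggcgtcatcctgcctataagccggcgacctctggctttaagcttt
Ctsa, chr2:164833523-164833772, plus strand: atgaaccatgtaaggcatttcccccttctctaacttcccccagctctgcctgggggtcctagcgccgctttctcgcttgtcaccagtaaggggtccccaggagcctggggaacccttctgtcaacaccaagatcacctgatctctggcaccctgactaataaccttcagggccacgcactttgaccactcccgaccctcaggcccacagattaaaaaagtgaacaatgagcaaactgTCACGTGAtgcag
Ctss, chr3:95526536-95526785, plus strand: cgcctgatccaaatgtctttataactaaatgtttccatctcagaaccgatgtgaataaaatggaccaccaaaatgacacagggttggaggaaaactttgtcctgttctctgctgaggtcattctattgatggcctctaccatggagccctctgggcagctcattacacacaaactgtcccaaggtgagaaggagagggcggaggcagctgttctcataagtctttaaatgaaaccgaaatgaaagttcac
Ctsk, chr3:95498960-95499209, plus strand: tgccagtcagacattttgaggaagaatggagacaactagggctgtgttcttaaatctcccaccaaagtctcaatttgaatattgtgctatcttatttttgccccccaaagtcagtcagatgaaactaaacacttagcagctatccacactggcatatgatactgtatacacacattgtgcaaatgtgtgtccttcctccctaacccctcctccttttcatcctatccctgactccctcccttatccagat
The match lay 99 to 92 bases before the start in Ctsd and 13 to 6 bases before it in Ctsa. Both matches lie inside the gene spans of the GENCODE annotation, since the annotated genes begin upstream of these RefSeq starts. Ctsa had a second listed start, just before the annotated beginning of the gene, whose region held no match. Searched on both strands over the same 250 bases, TCACGTGA was present in 0.785% of 32851 start regions. The shorter E-box CACGTG, which lies inside it, was present in 6.02% of them and also in Ctsl, 236 to 231 bases before its start, and at a separate place in Ctsd, 245 to 240 bases before. GAGGAAGT, a sequence of the kind that PU.1 and other ETS factors bind, was in 2.44% of all regions and among the cathepsin genes in Ctsc, 151 to 144 bases before the start as its reverse complement ACTTCCTC. The AP-1 motif TGANTCA, found in 6.75% of all regions, had no match in these 8 windows. Matches are letters in a window and were not tested as binding sites.

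Of the other cathepsin-named genes, 3 were tested (Ctsf, Ctso and Ctsw) and were called at no day. The 10 genes taken here, chosen with earlier results of these data known, were higher in sum after bleomycin. Their summed level had a mean of 2412 CPM on day 0 (SD 134, n = 4). It was 4571 CPM on day 7 (SD 566, n = 4), 7047 CPM on day 14 (SD 1429, n = 4) and 6365 CPM on day 21 (SD 1000.4, n = 3). The lowest bleomycin library held 4141 CPM and the highest day 0 library 2564 CPM, so the days with and without bleomycin did not overlap in this sum. Within day 14 the sum ran from 5329 CPM in replicate 3 to 8354 CPM in replicate 1. At day 7, 6 of the 10 genes were called higher, beside 8.78% of all 17457 genes. At day 14 the count was 8 of 10 beside 12%, and at day 21 it was 8 of 10 beside 12.4%. None was called lower at days 7, 14 or 21, beside 7.36%, 11.2% and 10.1% of all genes. The median log2 fold change of the 10 genes was 0.92, 1.38 and 1.39 at days 7, 14 and 21, and that of all genes tested was 0.01, 0.016 and 0.024. Every bleomycin library lay above every day 0 library for 8 genes at day 7, 9 at day 14 and 8 at day 21. Of all genes tested, 17.6%, 16.8% and 19.4% did so.

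**Figure D1:**
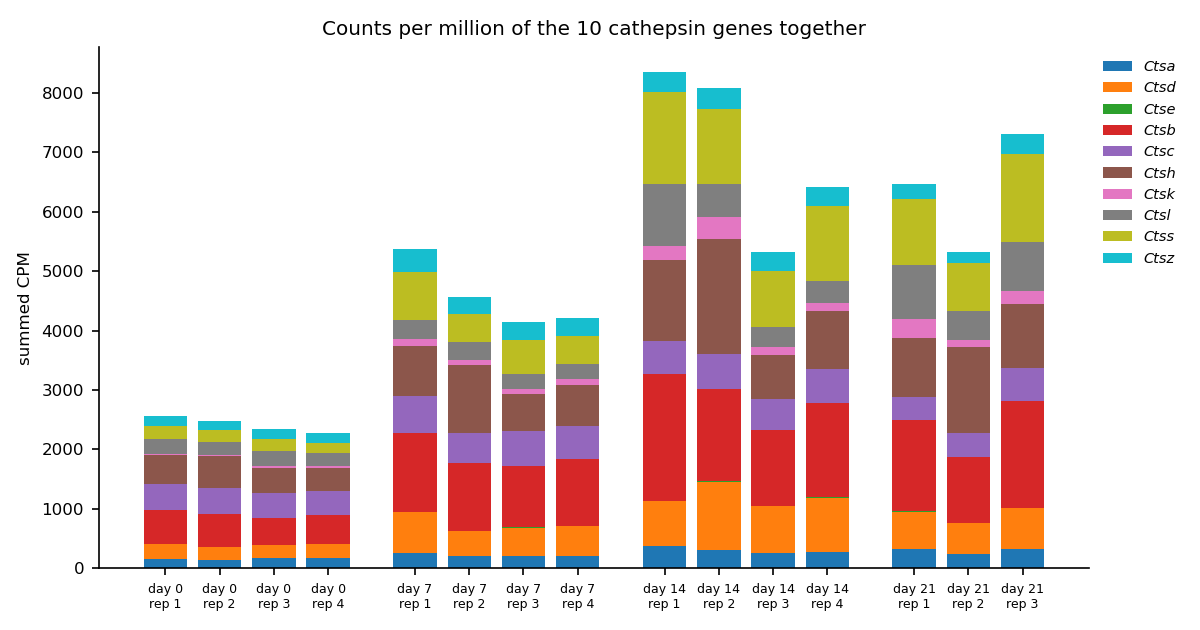
Summed CPM (vertical axis) of the 10 cathepsin genes in each of the 15 libraries (horizontal axis, by day and replicate), with 1 colour per gene. Bars of day 0 end at 2269 to 2564 CPM and all later bars at 4141 CPM or above, and since CPM is not per length, band heights compare libraries and not genes.

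**Figure D2:**
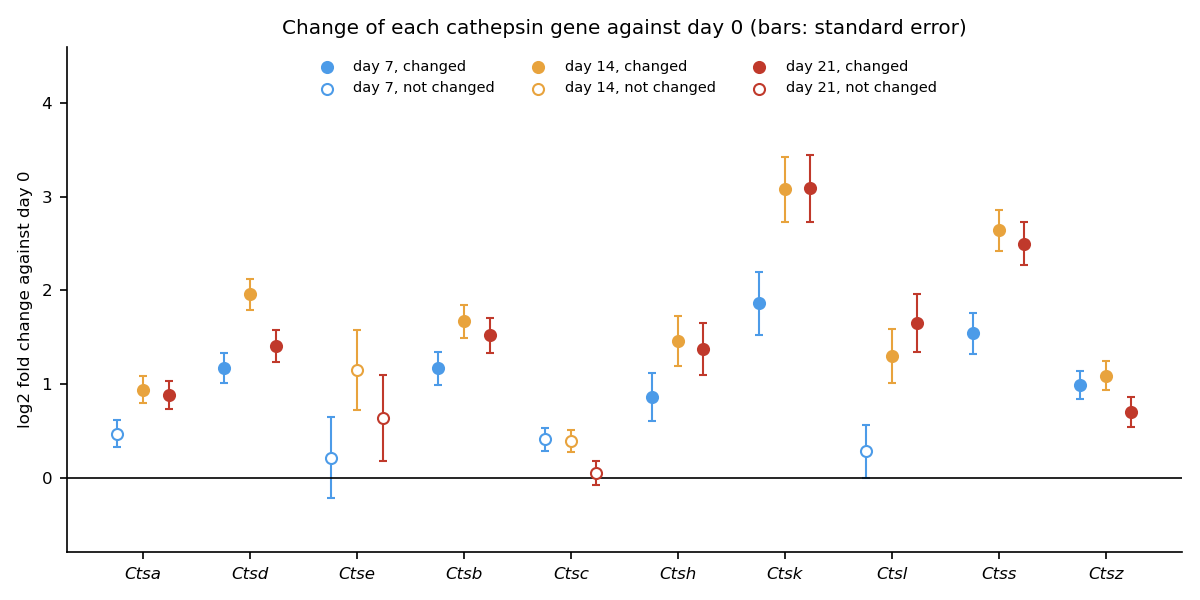
Log2 fold change against day 0 with its standard error (vertical axis) for each cathepsin gene (horizontal axis) at days 7, 14 and 21, with filled points for genes called higher. Ctsk and Ctss lie highest at each day, Ctsc lies between 0.05 and 0.41, and the error bars of Ctse are the longest.

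Ctsk and Ctss, both cysteine proteases, had the largest fold changes at each of the 3 days. Cathepsin K cleaves triple-helical collagen and elastin and is best known from osteoclasts. Ctsk (ENSMUSG00000028111, mm10 chromosome 3, 95499256 to 95509362, plus strand) was at 20.9, 24.2, 27.6 and 29.9 CPM in the 4 day 0 libraries and at 123.8, 84.7, 70.0 and 94.3 CPM at day 7. It was at 226.3, 369.8, 136.3 and 134.5 CPM at day 14 and at 319.8, 117.1 and 220.8 CPM at day 21. The lowest library after bleomycin held more than double the level of the highest day 0 library, and libraries of days 14 and 21 differed widely among themselves. The mean rose from 25.7 ± 3.94 CPM (SD, n = 4) to 93.2 ± 22.7 CPM at day 7, 216.7 ± 110.7 CPM at day 14 and 219.2 ± 101.3 CPM at day 21. These were log2 fold changes of 1.86 (standard error 0.335, edgeR adjusted p 0.00134), 3.08 (0.348, 1.42e-05) and 3.09 (0.361, 2.55e-05). By size of the fold change, Ctsk ranked 423, 186 and 241 from the top among 17457 genes at the 3 days.

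Cathepsin S keeps its activity at neutral pH and trims the invariant chain of MHC class II in antigen-presenting cells. Ctss (ENSMUSG00000038642, chromosome 3, 95526786 to 95556403, plus strand) lies beside Ctsk on the same strand. It was at 221.9, 193.1, 210.3 and 174.8 CPM at day 0, at 815.0, 477.7, 568.7 and 470.7 CPM at day 7, at 1537, 1262, 949.9 and 1246 CPM at day 14 and at 1118, 793.8 and 1483 CPM at day 21. The groups of day 0, day 7 and day 14 did not overlap with each other, and day 21 replicate 2 lay below day 7 replicate 1. The log2 fold change against day 0 was 1.54 (standard error 0.215, edgeR adjusted p 0.000214) at day 7, 2.64 (0.223, 1.82e-06) at day 14 and 2.5 (0.231, 4.84e-06) at day 21.

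The other cysteine cathepsins differed among themselves in size and time. Cathepsin B is an endopeptidase that also removes dipeptides from the carboxyl end. Ctsb (ENSMUSG00000021939, chromosome 14, 63122462 to 63145923, plus strand) was at 574.5, 555.9, 447.0 and 486.2 CPM at day 0, at 1319, 1149, 1036 and 1127 CPM at day 7, at 2130, 1560, 1283 and 1583 CPM at day 14 and at 1539, 1109 and 1799 CPM at day 21. All libraries after bleomycin lay above all day 0 libraries, and day 14 replicate 1 was the highest of the 15. The log2 fold changes were 1.17 (standard error 0.176, edgeR adjusted p 0.000383), 1.67 (0.178, 8.54e-06) and 1.52 (0.187, 3.97e-05). Fdft1, a gene on the opposite strand, shares 12.8% of the exon length of Ctsb and held at most 1212 counts in a library, where Ctsb held 7041 or more.

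Cathepsin H is an aminopeptidase that takes part in the processing of surfactant protein B in alveolar type 2 cells, the surfactant-producing cells of the alveolus. Ctsh (ENSMUSG00000032359, chromosome 9, 90054152 to 90076089, plus strand) was at 477.2, 529.6, 423.0 and 384.1 CPM at day 0 and at 829.3, 1133, 626.9 and 701.0 CPM at day 7. It was at 1363, 1932, 730.2 and 980.0 CPM at day 14 and at 994.7, 1455 and 1067 CPM at day 21. Replicate 2 was the highest library of its day on all 4 days, and no library after bleomycin fell into the day 0 range. Ctsh was called higher with log2 fold changes of 0.86 (standard error 0.26, edgeR adjusted p 0.0255), 1.46 (0.263, 0.00066) and 1.37 (0.277, 0.00182). The call at day 7 was lost within the libraries under 2.5% mitochondrial counts (log2 fold change 0.69, adjusted p 0.0573), with that share added to the model (0.68, 0.19), and without day 0 replicate 3 (0.81, 0.0699), day 0 replicate 4 (0.77, 0.0844), day 7 replicate 1 (0.84, 0.0621) or day 7 replicate 2 (0.67, 0.0922). It was also lost with glmTreat, edgeR's test against a fold change of 1.5 rather than of 1 (adjusted p 0.406). The 6 alveolar type 2 markers summed to 25758 to 35759 CPM at day 0 and to 4293 to 9072 CPM at day 21. At day 21 all 6 were called lower, beside 10.1% of all genes. The part of these cells in the Ctsh level was not tested.

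Cathepsin Z, also named cathepsin X, is a carboxypeptidase. Ctsz (ENSMUSG00000016256, chromosome 2, 174427493 to 174439039, minus strand) was at 153.6 to 169.5 CPM in the day 0 libraries, at 385.8, 273.9, 301.7 and 297.9 CPM at day 7, at 344.0, 351.4, 320.8 and 332.9 CPM at day 14 and at 242.7, 190.1 and 342.2 CPM at day 21. The day 14 libraries lay inside the range of day 7, and 2 of the 3 day 21 libraries lay below every library of both. The log2 fold changes against day 0 were 0.99 (standard error 0.151, edgeR adjusted p 0.000428), 1.09 (0.152, 8.46e-05) and 0.70 (0.161, 0.0042). The day 21 call was lost without day 21 replicate 3 (log2 fold change 0.41, adjusted p 0.0506) and with glmTreat (adjusted p 0.412).

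Cathepsin L is an endopeptidase of broad specificity. Ctsl (ENSMUSG00000021477, chromosome 13, 64359337 to 64370890, minus strand) was at 250.6, 214.5, 257.1 and 220.6 CPM at day 0 and at 314.7, 308.1, 261.7 and 256.7 CPM at day 7. It was at 1053, 556.3, 336.2 and 372.5 CPM at day 14 and at 909.9, 490.6 and 826.3 CPM at day 21. The day 7 libraries overlapped those of day 0, and those of days 14 and 21 all lay above both. Its log2 fold change was 0.28 at day 7 (standard error 0.286, edgeR adjusted p 0.511), where it was not called, and it was called higher at day 14 (1.30, 0.291, 0.00317) and day 21 (1.65, 0.309, 0.00101). Day 14 replicate 1 carried much of the day 14 value. Without it the log2 fold change was 0.82 (adjusted p 0.00717), and within the libraries over 3.5% mitochondrial counts it was 0.81 (adjusted p 0.0518), where the call was lost. An antisense gene, Gm47123, covers 26.8% of the exon length of Ctsl but was not in the table, and strand was not stated for the counting.

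Cathepsin C, or dipeptidyl peptidase I, activates the serine proteases of granules in neutrophils, mast cells and cytotoxic lymphocytes. Ctsc (ENSMUSG00000030560, chromosome 7, 88278085 to 88310888, plus strand) was at 439.1, 440.6, 418.1 and 416.4 CPM at day 0, at 635.2, 506.1, 587.9 and 544.8 CPM at day 7, at 561.2, 592.4, 520.5 and 578.9 CPM at day 14 and at 382.7, 398.2 and 551.3 CPM at day 21. All libraries of days 7 and 14 lay above day 0, while 2 of 3 day 21 libraries lay below it. The log2 fold changes of 0.41 at day 7 (standard error 0.122, edgeR adjusted p 0.0241) and 0.39 at day 14 (0.122, 0.0211) passed the test but not the fold change of 1.5, and at day 21 the value was 0.05 (0.131, 0.803). Of the 6 granule serine proteases listed, 5 were tested. None was called at day 7. Gzma and Gzmb, granzymes of cytotoxic lymphocytes, were lower at days 14 and 21, beside 11.2% and 10.1% of all genes. Gzma had a mean of 25.9 ± 11.9 CPM (SD) in the 4 day 0 libraries against 1.85 ± 0.997 CPM in the 3 of day 21, which gave a log2 value of -3.80 (edgeR adjusted p 0.000482).

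**Figure D3:**
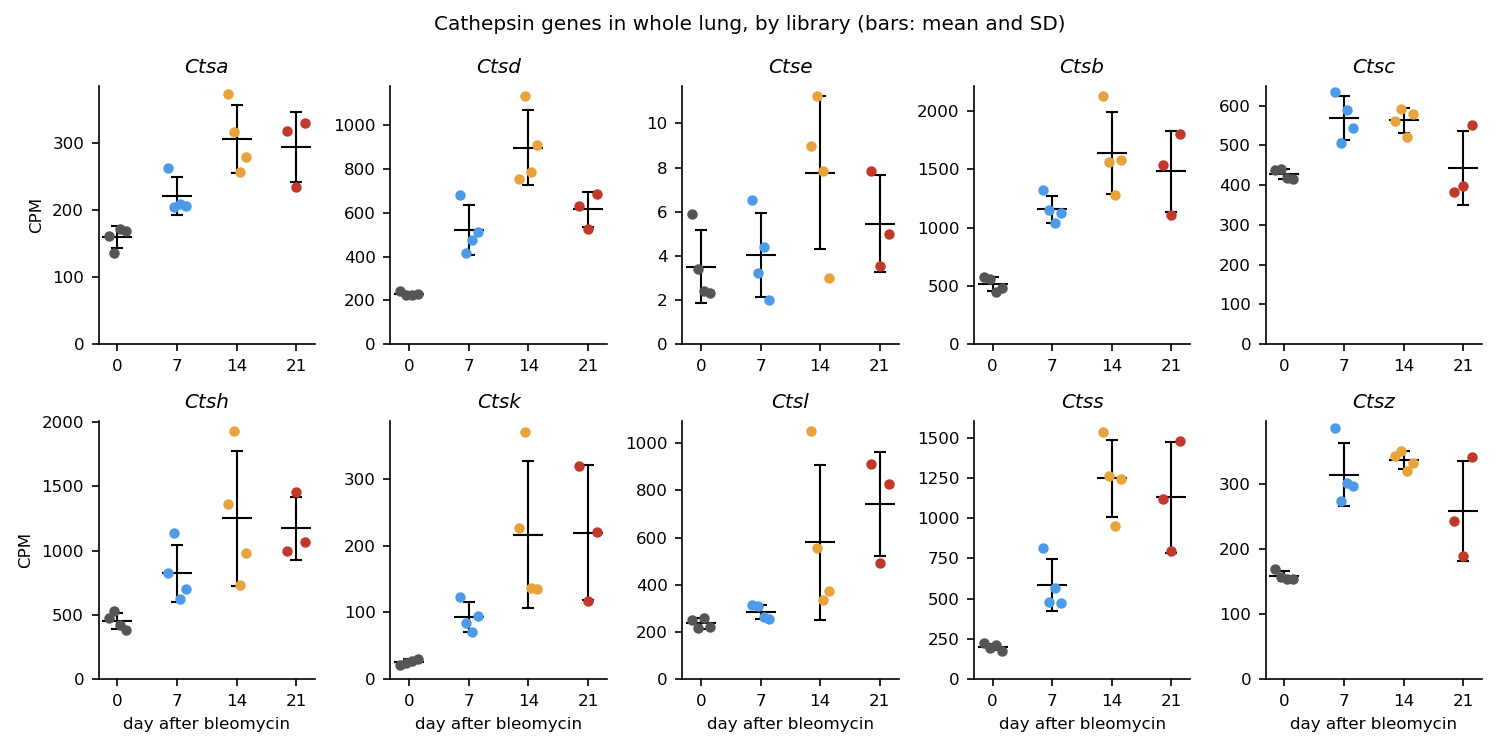
CPM (vertical axis, from 0) of each cathepsin gene in the 15 libraries by day (horizontal axis). Points are libraries, bars are the mean and SD. Ctsa, Ctsb, Ctsd, Ctsh, Ctsk, Ctss and Ctsz lie above their day 0 range in every library after bleomycin, and Ctsl does so from day 14. Ctsc lies at 382.7 to 551.3 CPM at day 21, with libraries above and below its day 0 range.

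The aspartic cathepsins differed widely in level. Cathepsin D is a major aspartic endopeptidase of the lysosome. Ctsd (ENSMUSG00000007891, chromosome 7, 142375911 to 142388038, minus strand), whose start region is the first of the sequences above, was at 243.8, 223.5, 226.5 and 231.7 CPM at day 0 and at 682.8, 418.9, 474.5 and 511.0 CPM at day 7. It was at 756.4, 1135, 787.6 and 911.4 CPM at day 14 and at 632.2, 527.2 and 688.1 CPM at day 21. The groups of day 0, 7 and 14 did not overlap with each other, and all 3 day 21 libraries lay below all 4 of day 14. The log2 fold change against day 0 was 1.17 (standard error 0.161, edgeR adjusted p 0.000192), 1.96 (0.165, 1.82e-06) and 1.41 (0.171, 3.59e-05). A protein-coding annotation on the same strand, Gm49369, shares 34.4% of the exon length of Ctsd and was not in the table.

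Cathepsin E is an aspartic protease of endosomes that is best known from stomach and immune cells. Ctse (ENSMUSG00000004552, chromosome 1, 131638306 to 131675505, plus strand) was at 5.89, 3.39, 2.41 and 2.34 CPM at day 0, at 6.51, 3.24, 4.39 and 2.02 CPM at day 7, at 8.98, 11.2, 7.84 and 3.02 CPM at day 14 and at 7.85, 3.53 and 5.00 CPM at day 21, on 34 to 176 counts per library. The libraries of all days overlapped with those of day 0. It was called at no day, with log2 fold changes of 0.21 (standard error 0.432, edgeR adjusted p 0.758), 1.15 (0.43, 0.0511) and 0.64 (0.46, 0.321). The day 14 value lay close to the threshold and was called under 6 of the alternatives, with DESeq2 at an adjusted p of 0.0273 without day 0 replicate 1 at 0.0238 and without day 14 replicate 4 at 0.0139.

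Cathepsin A is a serine carboxypeptidase that also protects beta-galactosidase and neuraminidase from degradation. Ctsa (ENSMUSG00000017760, chromosome 2, 164832873 to 164841032, plus strand) was at 160.7, 136.1, 171.2 and 169.3 CPM at day 0, at 263.0, 205.2, 208.9 and 205.3 CPM at day 7, at 372.9, 315.9, 257.1 and 278.6 CPM at day 14 and at 317.7, 234.6 and 329.9 CPM at day 21. All day 7 libraries lay above all day 0 libraries, and replicate 1 was the highest library at days 7 and 14. At day 7 the log2 fold change of 0.47 (standard error 0.143, edgeR adjusted p 0.0267) did not reach the fold change of 1.5, and Ctsa was called higher at day 14 (0.94, 0.144, 0.000188) and day 21 (0.88, 0.153, 0.000595). The day 21 call was lost with glmTreat (adjusted p 0.0784). Pltp on the opposite strand, with up to 6532 counts in a library, shares 10.5% of the exon length of Ctsa, which held 2251 to 6312 counts.

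The later days were also compared with each other. From day 7 to day 14, 4 of the 10 genes were called higher, beside 2.77% of all genes. These were Ctsk (log2 fold change 1.22, edgeR adjusted p 0.035), Ctss (1.10, 0.0114), Ctsl (1.02, 0.0438) and Ctsd (0.78, 0.0142). Between day 7 and day 21 the count was 3, beside 5.2%, with Ctsl at 1.38 (0.0119), Ctsk at 1.23 (0.0301) and Ctss at 0.96 (0.0147). Several of these calls were lost when 1 library was left out. Ctsl from day 7 to day 14 was at 0.57 without day 14 replicate 1 (adjusted p 0.0898), and Ctsk was at 0.83 without day 14 replicate 2 (0.12). Ctsl also lost the call without any 1 of the day 7 libraries or day 14 replicate 2 (log2 fold change 0.98 to 1.07, adjusted p 0.0747 to 0.112), and Ctsk without day 7 replicate 2, 3 or 4 (1.10 to 1.22, adjusted p 0.0778 to 0.0977). All day 7 libraries had low mitochondrial shares, and with that share in the model Ctsd was at 0.71 (0.0971) and Ctsk at 1.04 (0.205), which ended both calls, while Ctsb was at 0.78 (0.0422) and became called. Ctsl was not called with limma voom (0.87, 0.0613) or in a fit of the 2 groups alone (1.03, 0.0729). At day 21 against day 7, Ctsk was at 0.84 without day 21 replicate 1 (0.168), and its call was also lost without day 21 replicate 3 (1.20, 0.0581) or day 7 replicate 2, 3 or 4 (1.12 to 1.24, 0.0605 to 0.0823), and with the mitochondrial share in the model (1.04, 0.155). In the same comparison Ctsl was at 1.19 without day 21 replicate 1 (0.0532) and Ctss was at 0.69 without day 21 replicate 3 (0.0654). From day 14 to day 21 none of the 10 was called in either direction, beside 0% of all genes called higher and 0% called lower, and DESeq2 and limma voom also called none. At an unadjusted p under 0.05, 3 of the 10 had lower values, beside 4.74% of all genes, with log2 fold changes of -0.54 for Ctsd (standard error 0.174, edgeR adjusted p 0.34), -0.38 for Ctsz (0.163, 0.469) and -0.34 for Ctsc (0.132, 0.42).

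Levels of different genes were set side by side per kilobase of the union of annotated exons. On that scale Ctss was the highest of the 10 at every day, at 147.3 ± 15.1 CPM per kilobase at day 0 (SD, n = 4) and 919.5 ± 176.7 at day 14 (n = 4), and its libraries did not overlap with those of the next gene. Ctse was the lowest, at 1.11 ± 0.523 CPM per kilobase at day 0. At day 0 the order of the others was Ctsz, Ctsh, Ctsd, Ctsb, Ctsc, Ctsl, Ctsa and Ctsk. In that order the libraries of Ctsz and Ctsh, Ctsh and Ctsd, Ctsb and Ctsc, and Ctsl and Ctsa overlapped. At day 14 the order after Ctss was Ctsd, Ctsh, Ctsb, Ctsz, Ctsk, Ctsc, Ctsl and Ctsa, and each of these overlapped with the next. By this level Ctsk moved from rank 9 at day 0 to rank 6 at days 14 and 21, and Ctsc from rank 6 at day 0 to rank 7 and then 8. The share of Ctss in the summed level per kilobase of the family was 20.9% ± 1.39 at day 0 (SD, n = 4) and 37.1% ± 3.34 at day 14 (n = 4), and that of Ctsc was 10.5% ± 0.316 and 3.99% ± 0.597.

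The order depended on the length used, since the exon unions of Ctsl (6489 bases), Ctsc (5808) and Ctsh (4499) are far longer than the shortest of their transcripts in the consensus coding set, which measure 1971, 2493 and 1617 bases. Per kilobase of the latter, a scale chosen after the data were seen, Ctsh led at day 0 with 280.4 ± 39.3 CPM per kilobase (SD, n = 4), apart from Ctsc at 171.9 ± 5.25 and Ctss at 147.6 ± 15.2. At days 14 and 21 Ctss led with 921.5 ± 177.1 and 835.0 ± 254.3, and its libraries overlapped with those of Ctsh. Ctsl then stood at rank 4 at day 0 and at rank 3 at day 21. On this scale Ctsk was at rank 9 at day 0 and at rank 8 at days 14 and 21. Ctsc went from rank 2 at day 0 to rank 7 at days 14 and 21. At day 7 the highest mean was that of Ctsh, at 508.7 ± 138.0 against 430.3 ± 118.8 for Ctss, and their libraries overlapped. Ctse was lowest on both scales. The shares of the family sum also moved with the length. On this scale Ctss took 13.1% ± 0.903 at day 0 and 26.7% ± 2.88 at day 14, and Ctsc took 15.2% ± 0.5 and 6.68% ± 1.24 (SD, 4 libraries each).

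The genes also differed in how alike their patterns were over the 15 libraries. Over the 45 pairs of the 10 genes, Pearson correlations of log2 CPM had a median of 0.786, and 21 pairs were above 0.8. Ctsb and Ctss were the most alike (r = 0.972), followed by Ctsa and Ctss (0.961) and Ctsd and Ctss (0.953). Ctsc and Ctsl were the least alike (0.091). For deviations from the day means the median was 0.477, and the most alike pairs were then Ctss and Ctsz (0.865) and Ctsc and Ctsz (0.863). On that measure Ctsb and Ctss were at 0.801 and Ctsb and Ctsd at 0.32. These are descriptions over 15 libraries, which share the 4 days and whose tissue makeup differed between days.

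**Figure D4:**
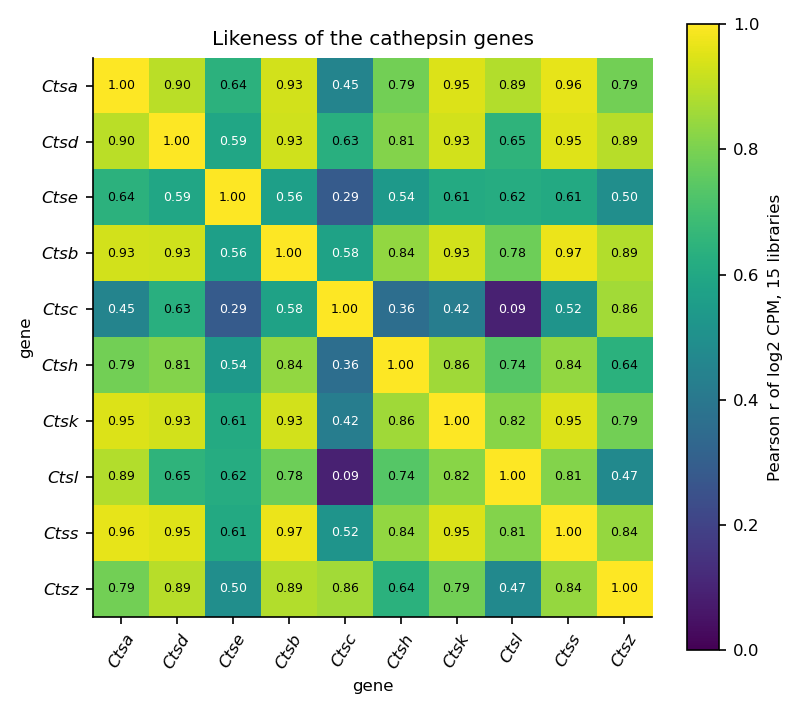
Pearson correlation of log2 CPM over the 15 libraries for each pair of cathepsin genes, with colour from 0 to 1 and the value in each cell. Ctsa, Ctsb, Ctsd, Ctsk and Ctss form a block with values from 0.898 to 0.972, and Ctsc with Ctsl has the lowest value, 0.091. For deviations from the day means the pairs of that block ranged from 0.32 to 0.826.

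Among 12234 other genes with a mean of at least 5 CPM, the genes most like each cathepsin were also sought. The most alike was Cd84, a receptor of leukocytes, for Ctss (r = 0.989 over 15 libraries), and Pld3, a lysosomal exonuclease, for Ctsd (0.986). Fcgr1, an Fc receptor of macrophages, was among the 3 most alike of Ctsb (0.987). For Ctsa the most alike was Man2b1, the lysosomal alpha-mannosidase (0.976), and for Ctsk it was Cstb, an inhibitor of cysteine cathepsins (0.977). It was Tmem37 for Ctsh (0.973), Slc6a8, the creatine transporter, for Ctsl (0.960), and Mcm2, a subunit of the replicative helicase, for Ctsc (0.946). The 3 genes most like Ctsz were Pclaf (0.977), Fignl1 (0.975) and Rrm2 (0.974), of which Rrm2 encodes a subunit of ribonucleotide reductase. The lowest best value was that of Ctse, with Borcs6 (0.874). Cd68, a macrophage glycoprotein of endosomes, was among the 3 most alike of both Ctsa (0.971) and Ctsk (0.974).

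Other genes that act on or with cathepsins were counted in the same fit. Beside them, 8.78%, 12% and 12.4% of all genes were called higher at days 7, 14 and 21, and 7.36%, 11.2% and 10.1% lower. Of 9 inhibitor genes 6 were tested, and 2 were called higher at each day and none lower. From day 0 (39.5 ± 4.25 CPM, SD, n = 4) to day 14 (139.4 ± 46.3 CPM, n = 4) Cstb rose by 1.82 on the log2 scale (edgeR adjusted p 2.36e-05), and Serpina3g, a serpin that inhibits cysteine cathepsins, by 1.17 (0.0291). Cst3, the secreted cystatin C, was not called. It had 623.7 ± 63.4 CPM on day 0 against 597.8 ± 20.8 on day 14 (log2 fold change -0.06, edgeR adjusted p 0.772). Of 11 genes of lysosomal sorting and proenzyme processing, 3, 4 and 4 were called higher at days 7, 14 and 21 and none lower. Lgmn, the asparaginyl endopeptidase that cleaves cathepsin chains, rose by a log2 fold change of 1.45, 1.99 and 2.07, Psap, the precursor of the saposins, by 0.84, 1.40 and 1.11, and Igf2r, the cation-independent mannose 6-phosphate receptor, by 0.80, 0.80 and 0.77. Tfeb, a regulator of lysosomal genes, was at 29.7 ± 5.12 CPM at day 0 and 28.4 ± 3.24 CPM at day 14 and was not called at any of the 3 days. Of its relatives, Mitf was not called at day 7 and was higher at day 14 (log2 fold change 0.63, edgeR adjusted p 0.00447) and day 21 (0.79, 0.00181). Tfe3 passed the test at each day but not the fold change of 1.5, with 0.31 (adjusted p 0.0232), 0.48 (0.00123) and 0.41 (0.00647).

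Of 26 other lysosomal hydrolases and membrane proteins, 7 were called higher at day 7, 12 at day 14 and 9 at day 21, beside the 8.78%, 12% and 12.4% of all genes, and none was lower. The median log2 fold change of the 26 was 0.42, 0.56 and 0.37, against 0.92, 1.38 and 1.39 for the 10 cathepsins. The largest rise of the list at day 14 was in Acp5, the tartrate-resistant acid phosphatase, which went from 14.7 ± 1.97 CPM (SD, 4 libraries) to 71.9 ± 11.3 CPM (4 libraries), or 2.29 on the log2 scale (edgeR adjusted p 8.03e-07). The proton pump subunit Atp6v0d2 rose by 1.39 (1.26e-05) and the tetraspanin Cd63 by 1.54 (5.61e-05). Of 7 genes of the invariant chain and MHC class II, 1 was called higher at days 7 and 14 (H2-DMb1) and none at day 21, and none was lower. Cd74, the invariant chain that cathepsin S cleaves, was not called, at 0.80 on the log2 scale for day 7 (edgeR adjusted p 0.0788) and 0.34 for day 14 (0.435). All 5 matrix genes listed as substrates, Eln, Col1a1, Col1a2, Col3a1 and Fn1, were called higher at each day, with Eln at a log2 fold change of 2.76, 4.21 and 4.25. Of 13 further genes with a cathepsin name, 11 were in the table and 3 were tested. Ctsf, Ctso and Ctsw were called at no day. Ctsf, a cysteine cathepsin, had 30.6 ± 6.54 CPM (SD) on day 0 against 20.9 ± 3.24 CPM on day 7, and its log2 value of -0.55 (edgeR adjusted p 0.0247) did not reach the fold change of 1.5.

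Macrophage markers moved with these genes. Over all genes tested, 8.78%, 12% and 12.4% were called higher at days 7, 14 and 21, and 7.36%, 11.2% and 10.1% lower. Of 8 macrophage markers 5, 7 and 6 were called higher at days 7, 14 and 21, and none lower. Their summed level was 401.9 to 470.3 CPM at day 0, 949.6 to 1357 CPM at day 7, 1085 to 2765 CPM at day 14 and 1232 to 2193 CPM at day 21, and none was at 0 in a library. Cd68 rose by a log2 fold change of 1.35, 2.00 and 1.89, and C1qa, a complement subunit made by macrophages, by 2.23, 2.81 and 2.85. Of 5 markers of scar-associated macrophages, 3, 4 and 3 were called higher, with a summed level of 416.0 to 493.0 CPM at day 0 and 1987 to 4683 CPM at day 14. Their receptor gene Trem2 had 4.35 ± 1.43 CPM (SD) in the 4 libraries of day 0 against 89.3 ± 23.3 CPM in those of day 14. Of 6 markers of alveolar macrophages, 0, 1 and 0 were higher and 3, 2 and 3 lower, and Fabp1 was at 0 in at least 1 library. Of 4 monocyte markers, 1 was higher at each day. Of 6 fibroblast markers, a cell type in which cathepsin K is also known, 3, 5 and 5 were higher. Their summed level was 1385 to 1933 CPM at day 0 and 3695 to 13544 CPM at day 14. The part of cell numbers of any type in the cathepsin changes was not tested.

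Of the markers of other cell types, few were higher at the 3 days. The shares of all genes were 8.78%, 12% and 12.4% called higher and 7.36%, 11.2% and 10.1% called lower. None of the 4 neutrophil markers was higher and 3, 1 and 3 were lower, and of 5 dendritic cell markers 1, 0 and 0 were higher and 1 was lower at each day. B cell markers (4 listed) were lower in 0, 4 and 4 cases, T and NK cell markers (5 listed) in 0, 3 and 3, club cell markers (3 listed) in 2, 3 and 2, endothelial markers (4 listed) in 0, 2 and 1, and alveolar type 2 markers in 0, 3 and 6. Heart muscle genes (4 listed), of which 0, 1 and 0 were lower, ran in sum from 18.2 to 224.3 CPM at day 0, 24.1 to 557 CPM at day 7, 18.7 to 36.0 CPM at day 14 and 11.6 to 663.4 CPM at day 21. The sum of fat cell genes (4 listed), of which 0, 4 and 3 were lower, ran from 1.55 to 51.6, 4.64 to 127, 0.255 to 0.65 and 0.228 to 2.41 CPM at these days. Myh6 and all 4 fat cell genes were at 0 in at least 1 library.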

How the data were processed

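The authors trimmed reads with TrimGalore, aligned them to mm10 with HISAT2 2.1.0, excluded multi-mapped ones and deposited HTSeq 0.6.0 output, whole-number counts by Ensembl gene without normalization. The annotation release and strand setting of the counting are not given in the sources used here. Groups and replicate numbers were taken from the sample titles, since the series text gave fewer replicates. Symbols, positions and lengths came from GENCODE M21 (same build), which matched 33267 of 33340 genes. The others held 0.00889% of counts.

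Counts were tested with edgeR 4.0.16 in R 4.3.3: filterByExpr on day (17457 genes kept), TMM factors of 0.97 to 1.02, glmQLFit and glmQLFTest on day alone, with the 15 libraries fitted together (common biological coefficient of variation 22.8%). A gene was called at a Benjamini-Hochberg adjusted p below 0.05 and a fold change over 1.5, as in the study. Standard errors are the log2 fold change divided by the root of F. Correlations used log2 CPM with a prior count of 2. The fit was tested on simulated data.

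Named genes were the 10 cathepsins, members of the pathway and cell type lists, and the 3 tested genes of mean 5 CPM or more that were most like each cathepsin. The members and lists were chosen with earlier results of these data known. Start regions came from RefSeq. The values of 1 listed gene are not reported here. Alternatives were DESeq2 1.42.0, limma voom (limma 3.58.1), RLE and total count scaling, no filter, a mean of 1 CPM, the 2 groups alone, replicate number as a block, adjusted p alone, glmTreat at 1.5, the mitochondrial share as covariate, libraries under 2.5% or over 3.5% mitochondrial counts, leaving out each library, and other gene lengths.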

Additional observations from a re-analysis of the deposited data

Results flagged for a closer look

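In each of the 30 groups of 4 libraries (10 genes at days 0, 7 and 14), the library at either end was compared with the other libraries, where chance gives about 5% of groups. In 1 group a library stood apart. Ctsa in day 7 replicate 1 was at 263 CPM, while the remaining day 7 libraries held 205.2 to 208.9 CPM, a gap of 0.936 of the whole range and above Dixon's critical value for 4 samples. The same library was the highest of day 7 for Ctsb, Ctsc, Ctsd, Ctse, Ctsk, Ctsl, Ctss and Ctsz, but not for Ctsh.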

How the results depend on the processing

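Of the 22 calls against day 0, 18 held in every alternative run for them. For the calls at day 21 these held no fit within libraries of like mitochondrial share. The exceptions were Ctsh at day 7, Ctsl at day 14, and Ctsa and Ctsz at day 21. glmTreat, which tests against the fold change itself, ended those of Ctsh (adjusted p 0.406), Ctsa (0.0784) and Ctsz (0.412). No call against day 0 changed direction, and 413 of their 424 alternative values lay on the same side of the thresholds. These include the values at adjusted p alone, which reuse the main fit and could not end a call. Leaving out 1 library gave counts of 5 to 6 genes at day 7, 8 to 9 at day 14 and 7 to 8 at day 21. The steps between later days were less stable. At day 14 against day 7 the count of 4 was 2 to 4 when 1 library was left out (2 without day 7 replicates 2, 3 or 4 or day 14 replicate 2), and at day 21 against day 7 the count of 3 was 1 to 3 (1 without day 21 replicate 1 or 3). glmTreat called 0 genes in both. At day 21 against day 14 it was 0 in every alternative.

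Directions turned only in values that were not called. At day 7 Ctse was at -0.21 within libraries under 2.5% mitochondrial counts and at -0.14 to 0.55 with 1 library left out, and Ctsl was at -0.07 with the mitochondrial covariate. Leaving out 1 library gave -0.18 to 0.12 for Ctsc at day 21, and -0.07 to 0.04 for Ctsc at day 14 against day 7, where the mitochondrial covariate gave 0.09. At day 21 against day 14 it gave -0.17 to 0.06 for Ctsa, -0.33 to 0.01 for Ctsb, -0.3 to 0.18 for Ctsh, -0.37 to 0.39 for Ctsk and -0.41 to 0.04 for Ctss. The causes were not tested.

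The labels name no pairing by replicate number, and whether there was one cannot be told. For same-numbered libraries of different days, the correlation of deviations from the day means ran from -0.271 to 0.449. It was over 0.1 in 10 of 21 pairs, and 6 of 15 libraries correlated best with their own number. With the replicate block the counts were 6, 8 and 9 genes at days 7, 21 and 14, and 5, 3 and 0 at day 14 against day 7, day 21 against day 7 and day 21 against day 14. The calls gained with the block were both of Ctse, at day 14 against day 0 (1.13, edgeR adjusted p 0.00743) and against day 7 (0.96, 0.0487). Ctse had the lowest depth of the 10 genes, with 34 to 176 counts per library.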
